A study of Mus musculus with 16 samples.

Results

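The NRF2 targets and antioxidant enzymes were followed as a list of 47 genes, chosen by name for their known roles with earlier results of these data in view, and 46 of them were among the 20725 genes measured on the arrays. The list held 2 regulators of the pathway, 15 genes of glutathione metabolism, 10 of the thioredoxin and peroxiredoxin system, 4 superoxide dismutase and catalase genes, 5 of NADPH supply, 2 metallothioneins and 9 of quinone, haem and xenobiotic metabolism. G6pdx, of the NADPH class, was not analysed here. RNA of mouse alveolar epithelial type II (AT2) cells, the surfactant-making cells of the air sacs, had been hybridised to 16 single-colour arrays, and the cells came from pups at postnatal day 3. Wild-type pups in normoxia gave 4 samples and wild-type pups in hyperoxia gave 6. Pups heterozygous for Fgf10 (Fgf10+/-), a growth factor that mesenchymal cells supply to lung epithelium, gave 4 samples in normoxia and 2 in hyperoxia. Hyperoxia was 85% oxygen in a chamber from day 0 to day 3. The series text states 4 samples in each of 4 groups, whereas the titles and genotype labels give 6 and 2 in hyperoxia, and the labels were followed. The sources used here do not say how the AT2 cells were isolated or whether samples came from separate pups, so p-values measure the spread between these samples, which may be partly technical.

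NRF2, encoded by Nfe2l2, is a transcription factor that KEAP1 holds in the cytoplasm and delivers for degradation. Oxidants and electrophiles modify cysteines of KEAP1, so that NRF2 escapes, enters the nucleus and, paired with a small MAF protein, binds antioxidant response elements beside genes for glutathione synthesis, thioredoxin reduction, NADPH supply and detoxification. Catalase, the superoxide dismutases and the peroxiredoxins remove superoxide and peroxides, and not all of them depend on NRF2. Newborn lung meets these reactions at birth, when oxygen rises, and high oxygen is a widely used model of injury to the immature lung.

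The sequence that NRF2 reads was looked up in the members' promoters, to show which of them carry it close to the gene start. Promoter windows of 300 bases, 250 before to 50 after the start, came from RefSeq (GRCm38.p6), and 40 of the 47 listed genes had at least 1 window, some more than 1. The core of the antioxidant response element was searched as TGACNNNGC on both strands. It was present in 12.4% of all 32851 windows and in at least 1 window of 14.0% of 27025 gene symbols, and 12 of the 40 members held it: Nfe2l2, Gclm, Gsta3, Txnrd1, Srxn1, Prdx1, Sod1, G6pdx, Pgd, Me1, Mt2 and Ugdh. Of the 7 members that rose in hyperoxia over both genotypes, Txnrd1 and Ugdh are among these. The form TGACTCAGC, which contains the TGACTCA bound by AP-1 factors and so overlaps that motif, was in 0.454% of windows and in those of Prdx1, Mt2 and Me1. The 5 stretches shown, on the strand of the gene and with the matches in capitals, are of Txnrd1 and Ugdh and of the 3 with the form TGACTCAGC. They lie at chr10:82859089-82859147 (plus) for Txnrd1, chr5:65435903-65435999 (minus) for Ugdh, chr4:116685441-116685499 (plus) for Prdx1, chr9:86695912-86695945 (minus) for Me1 and chr8:94172514-94172572 (plus) for Mt2.
Txnrd1: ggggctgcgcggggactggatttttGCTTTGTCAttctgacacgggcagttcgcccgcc
Ugdh: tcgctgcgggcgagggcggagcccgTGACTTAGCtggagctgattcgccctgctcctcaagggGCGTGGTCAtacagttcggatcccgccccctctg
Prdx1: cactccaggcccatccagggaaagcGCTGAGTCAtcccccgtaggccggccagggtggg
Me1: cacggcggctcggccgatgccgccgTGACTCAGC
Mt2: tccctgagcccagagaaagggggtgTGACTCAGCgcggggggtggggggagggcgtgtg
Txnrd1 has 3 windows and Me1 has 2, and in both genes 1 window holds the match. Where the capitals begin with GC, the match is on the opposite strand. Counted from the gene start, with -1 the base before it, the match of Txnrd1 spans -92 to -84, those of Ugdh -132 to -124 and -94 to -86, and that of Prdx1 -133 to -125. These letters are a description of the windows and not evidence of binding, and a window without them says only that they are not in it.

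Levels are log2 signals as the authors deposited them, and the log base was inferred from the range of the values, so the fold values given rest on base 2. Mean signals under 6 were counted as dim. All 10 AT2 markers were above that limit, and their mean ran from 11.1 to 12.4 over the 16 samples. The lowest mean was that of Fgf10+/- hyperoxia replicate 2 (11.06), and replicate 1 of that group had 12.23. The median change of these markers in hyperoxia over both genotypes was -0.30, with 0 of 10 passing. The mean of 8 AT1 markers, none dim, was 9.76 to 11.07 in normoxia and 9.88 to 11.255 in hyperoxia (median change -0.003, 0 of 8 passing). Markers of other cells were also present. The mean of 7 club and secretory markers (Scgb1a1, Scgb3a1, Scgb3a2, Cyp2f2, Cbr2, Bpifa1 and Muc5b) was 11.6 to 13.6 in wild-type normoxia, 13.0 to 13.9 in Fgf10+/- normoxia, 9.61 to 13.6 in wild-type hyperoxia and 10.5 to 12.2 in Fgf10+/- hyperoxia. Thymocyte markers, 9 of 10 of them with a mean under 6, averaged 6.43 in wild-type normoxia replicate 4 and 6.38, 5.74 and 5.54 in Fgf10+/- normoxia replicates 2, 1 and 4, against 4.01 to 4.75 in the other 12 samples. The mean of 8 endothelial markers, 3 of them dim, was 6.98 to 8.36 in the 8 normoxia samples and 7.88 to 9.24 in the 8 hyperoxia samples, and 3 of the 8 rose. The mean of 11 fibroblast, smooth muscle and pericyte markers was 7.87 to 10.60 in wild-type normoxia, 8.21 to 8.80 in Fgf10+/- normoxia and 8.74 to 9.86 in hyperoxia, and 2 of the 11 rose. The mean of 7 ciliated markers, none dim, was 8.58 to 10.8 in normoxia and 7.998 to 10.5 in hyperoxia (median change -0.80, 0 of 7 passing). The mean of 6 measured neutrophil markers, 1 dim, was 7.91 to 9.06 in normoxia and 8.07 to 9.63 in hyperoxia (median change 0.58, 2 of 6 passing), and that of 9 macrophage markers, 4 dim, was 5.60 to 6.84 and 6.18 to 7.23 (median change 0.29, 1 of 9 passing). The mean of 8 measured erythroid markers, 2 dim, was 7.65 to 10.15 in wild-type normoxia and 7.91 to 10.25 in wild-type hyperoxia. It was 8.095 to 9.795 in Fgf10+/- normoxia and 9.39 to 9.585 in Fgf10+/- hyperoxia (median change 0.43, 0 of 8 passing). The part of these cells in the members' values was not tested. In bulk RNA, fewer cells of a type and less RNA per cell cannot be told apart.

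Averaged over the genotypes, 7 of the 46 members rose in hyperoxia and none fell, at an adjusted p under 0.05 by limma with Benjamini-Hochberg adjustment over all genes. They were Cat, Cbr3, Aox1, Ephx1, Txnrd1, Ugdh and Taldo1. Of all genes tested 11.1% passed in this comparison (1030 rose, or 4.97%, and 1272 fell, or 6.14%), against 15.2% of the members. An unadjusted p under 0.05 was found for 14 members (30.4%) and for 25.8% of all genes. The median change of the members was 0.24 against -0.06 for all genes, and 30 of 46 members were positive against 43.5% of all genes. With each array centred on its median, which moved the median of all genes from -0.06 to 0.05, the genes split into 1470 that rose and 806 that fell, and 11 members rose, the added ones being Srxn1, Gclc, Prdx6 and Txn2. Without the 4 libraries highest in thymocyte markers, replicate 3 is the 1 Fgf10+/- normoxia sample left, so only sizes are given. The median change of the members was then 0.105, against -0.08 for all genes, and Prdx5 was lower by 0.72. Prdx5 read 10.30 in that replicate, above the 9.59 to 9.90 of Fgf10+/- normoxia replicates 1, 2 and 4.

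Within each genotype fewer members passed, and the numbers of samples were smaller. In wild type 1 member, Cat, rose and 0 fell (3.13% of all genes passed), and in Fgf10+/- 1 member, again Cat, rose and 0 fell (2.45% passed). Unadjusted p-values under 0.05 were found for 10 members (21.7%) in wild type and 8 (17.4%) in Fgf10+/-, near the 18.2% and 16.7% of all genes. Both genotypes had 31 of 46 members positive, with medians of 0.20 in wild type and 0.19 in Fgf10+/-, where all genes had -0.08 and -0.04. The 2 contrasts use different samples, and 40 of the 46 members had the same sign in both, 28 of them positive, whereas 68.1% of all genes had the same sign and 28.2% were positive in both. Every hyperoxia sample exceeded every normoxia sample for 2 members, Cat and Taldo1, and 1.84% of all genes showed this. In the Fgf10+/- samples alone, 14 members were higher in both hyperoxia samples than in all 4 normoxia samples and none was lower, where 12.4% of all genes were higher and 13.6% lower.

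**Figure D1:**
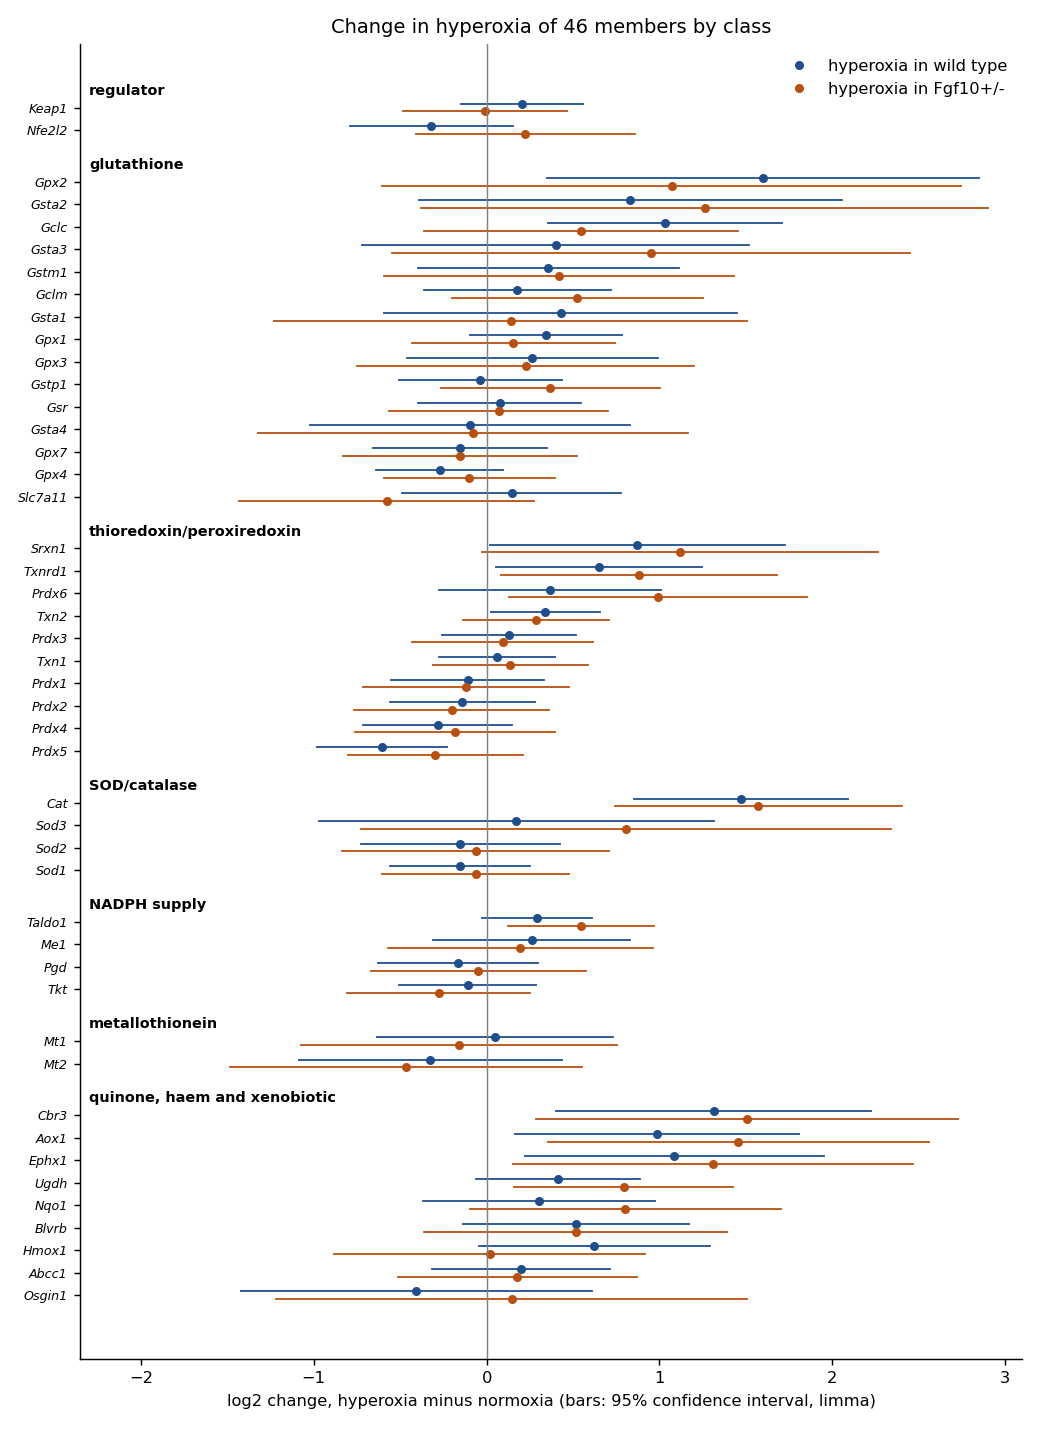
Log2 change in hyperoxia (x axis) of each of the 46 members (rows, grouped by class), in wild type (blue, 6 against 4 samples) and Fgf10+/- (orange, 2 against 4 samples), where bars are 95% confidence intervals from limma. Points to the right of 0 predominate among the quinone, haem and xenobiotic genes, 8 of 9 in wild type and 9 of 9 in Fgf10+/-. Of all genes 41.7% and 46.6% were positive. The intervals of Cat lie clear of 0 in both genotypes.

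The regulators of the pathway did not pass the test. Nfe2l2 read 10.13, 10.85, 10.39 and 10.22 in wild-type normoxia, 9.65, 9.69, 10.32 and 9.997 in Fgf10+/- normoxia, 9.60 to 10.53 with a median of 10.19 in wild-type hyperoxia, and 10.05 and 10.22 in Fgf10+/- hyperoxia. All 4 groups overlapped. Its change over both genotypes was -0.05 (SE 0.19, limma adjusted p = 0.910). Keap1 read 8.49, 8.91, 8.80 and 8.55 in wild-type normoxia and 8.60 to 9.21, median 8.85, in wild-type hyperoxia. In the Fgf10+/- samples it read 8.72, 8.79, 9.18 and 9.01 in normoxia and 8.99 and 8.84 in hyperoxia, and these groups overlapped too. The change of Keap1 was 0.10 (SE 0.14, limma adjusted p = 0.723). NRF2 is controlled chiefly through its protein, which arrays do not measure.

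Among the glutathione genes 11 of 15 were positive over both genotypes (73.3%, against 43.5% of all genes) with a median of 0.25, and none passed. Of 22 other glutathione enzymes, on the further list below, 8 were positive (36.4%), with a median of -0.05. Of those 22, 0 rose and 4 fell (18.2%, against 6.14% of all genes). An unadjusted p under 0.05 by limma was found for 3 of 15, a smaller share than the 25.8% of all genes: Gclc, Gpx2 and Gsta2. Gclc encodes the catalytic subunit of the enzyme that limits glutathione synthesis. It read 8.72, 9.96, 10.53 and 9.43 in wild-type normoxia, 10.06 to 11.36 with a median of 10.57 in wild-type hyperoxia, 10.60, 9.80, 10.25 and 10.21 in Fgf10+/- normoxia, and 10.78 and 10.74 in Fgf10+/- hyperoxia. Wild-type normoxia replicate 3 lay within the hyperoxia range, whereas both Fgf10+/- hyperoxia samples lay above their controls. The change was 0.79 (SE 0.27, 95% interval 0.22 to 1.36, limma adjusted p = 0.0691). Gpx2, a glutathione peroxidase of epithelia, was higher by 1.34 (SE 0.49, adjusted p = 0.0942), with a wide spread among wild-type normoxia samples, from 7.48 in replicate 1 to 10.48 in replicate 3. Gsta2, an alpha-class glutathione transferase, was higher by 1.05 (SE 0.48, adjusted p = 0.182), and by 0.55 without Fgf10+/- hyperoxia replicate 2.

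The peroxidases that carry much of the cell's peroxide removal showed smaller differences. Gpx1, the cytosolic glutathione peroxidase, read 12.93, 12.49, 12.40 and 12.31 in wild-type normoxia, 12.52 to 13.55 with a median of 12.79 in wild-type hyperoxia, 12.97, 12.73, 12.55 and 12.46 in Fgf10+/- normoxia, and 13.05 and 12.62 in Fgf10+/- hyperoxia. The highest value was that of wild-type hyperoxia replicate 5, which also had the highest mean of the erythroid markers (10.25). The groups overlapped in both genotypes. The change of Gpx1 was 0.25 (SE 0.17, limma adjusted p = 0.408). Gpx4, which reduces lipid peroxides in membranes, differed by -0.19 (SE 0.15) and Gsr, which regenerates glutathione, by 0.07 (SE 0.19). The second feature of Gsr differed by -0.30 (SE 0.19, limma adjusted p = 0.374). Gclm, the modifier subunit of glutathione synthesis, differed by 0.35 (SE 0.21), but its mean signal was under 6, as were those of Slc7a11, Gsta1, Gpx7, Nqo1 and Abcc1, so their changes are less certain. The other transferases ranged from 0.68 for Gsta3 to -0.09 for Gsta4, and all 10 array features annotated to Gsta4 were negative.

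In the thioredoxin and peroxiredoxin system Txnrd1 rose and the other 9 members did not pass. Txnrd1 encodes the cytosolic thioredoxin reductase, an NADPH-dependent selenoenzyme. It read 9.63, 10.58, 10.72 and 9.997 in wild-type normoxia, 10.25 to 11.59 with a median of 10.74 in wild-type hyperoxia, 10.37, 10.06, 10.29 and 10.03 in Fgf10+/- normoxia, and 10.90 and 11.24 in Fgf10+/- hyperoxia. The wild-type groups overlapped and the Fgf10+/- groups did not. The change was 0.77 (SE 0.24, 95% interval 0.27 to 1.26, limma adjusted p = 0.0456), a 1.70-fold rise, and with each sample omitted in turn it passed 4 times of 16, at 0.67 to 0.85.

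Srxn1, sulfiredoxin, which restores overoxidised peroxiredoxins, was higher by 0.99 (SE 0.34, limma adjusted p = 0.0691), and by 0.87 in wild type and 1.12 in Fgf10+/-. Prdx6, a peroxiredoxin abundant in AT2 cells that also acts on phospholipids, read 12.78, 13.77, 13.76 and 13.18 in wild-type normoxia, 12.96 to 14.44 with a median of 13.77 in wild-type hyperoxia, 13.03, 12.82, 13.67 and 13.16 in Fgf10+/- normoxia, and 14.02 and 14.30 in Fgf10+/- hyperoxia. Its change was 0.68 (SE 0.25, adjusted p = 0.0970). The wild-type ranges overlapped widely, and the separation was in the Fgf10+/- samples. Prdx5, the peroxiredoxin of mitochondria and peroxisomes, went the other way: it was lower by 0.45 (SE 0.15, adjusted p = 0.0613), and in wild type all 6 hyperoxia samples, from 9.32 to 9.73, lay below the 4 normoxia samples, from 9.79 to 10.40, as did 4.02% of all genes. Adjusted for the mean of the thymocyte markers, most of them dim, Prdx5 fell by 0.75 (limma adjusted p = 0.0123), the largest change among the alternatives. In the other alternatives that kept all samples or left out several, the change was as small as -0.30, with a limma adjusted p of up to 0.556. With each sample omitted in turn it passed 2 times of 16, at -0.51 to -0.38. Txn1, Prdx1, Prdx2, Prdx3 and Prdx4 differed by -0.23 to 0.11.

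Catalase was the member with the smallest p, and the 3 superoxide dismutase genes did not pass. Cat, whose enzyme breaks hydrogen peroxide down in peroxisomes, read 8.21, 8.13, 8.16 and 7.86 in wild-type normoxia and 7.89, 7.25, 7.79 and 7.46 in Fgf10+/- normoxia. In wild-type hyperoxia it read 8.82 to 10.51 with a median of 9.52, and in Fgf10+/- hyperoxia 9.65 and 8.68. The lowest of the 8 hyperoxia samples, 8.68, was above the highest of the 8 normoxia samples, 8.21. The rise was 1.52 over both genotypes (SE 0.24, 95% interval 1.00 to 2.04, limma adjusted p = 8.79e-04), a 2.87-fold rise, with 1.47 in wild type (adjusted p = 0.00963) and 1.57 in Fgf10+/- (adjusted p = 0.0446). With each sample omitted in turn it passed over both genotypes all 16 times (1.28 to 1.76). In Fgf10+/- alone it passed 4 times of 16, and without hyperoxia replicate 1 it was 1.09 (adjusted p = 0.384).

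A second array feature is annotated to Cat, and it did not show this rise. It read 6.15, 6.24, 6.44 and 6.10 in wild-type normoxia, 5.28 to 6.65 in wild-type hyperoxia, 5.99, 6.18, 6.46 and 6.15 in Fgf10+/- normoxia, and 5.95 and 5.74 in Fgf10+/- hyperoxia. The groups overlapped in wild type, and its change was -0.31 (SE 0.19, limma adjusted p = 0.359). With the mean of both features Cat was higher by 0.61 (adjusted p = 0.0118 over both genotypes, 0.0675 in wild type and 0.186 in Fgf10+/-). The brighter feature was highest in wild-type hyperoxia replicates 1 and 2 (10.51 and 9.97) and lowest in replicates 3 and 4 (8.82 and 9.01). Snap25, a neuronal vesicle gene that is not on the list and was named after its values were seen, read 10.74 to 13.16 in wild-type hyperoxia and 7.61 to 8.97 in wild-type normoxia, and was likewise highest in replicate 1 and lowest in replicate 3. Without the 4 libraries highest in thymocyte markers, which leaves 1 Fgf10+/- normoxia sample, the change of Cat was 1.39. With the endothelial marker mean as a covariate it was 1.28 (limma adjusted p = 0.0905). What the 2 features detect was not tested.

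**Figure D2:**
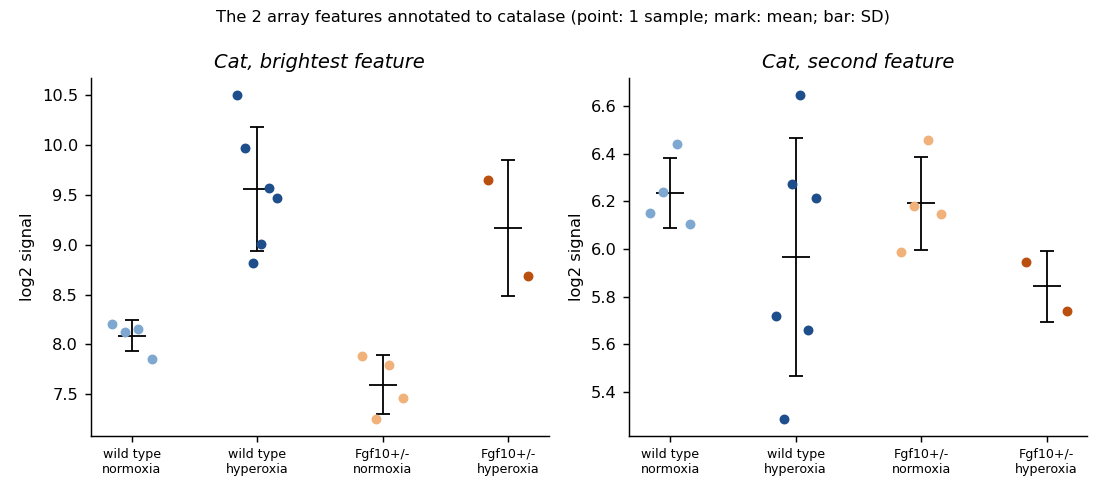
Log2 signal (y axis) of the 2 features annotated to Cat in the 4 groups (x axis), 1 point per sample, with the group mean and SD. The brighter feature separates the 8 hyperoxia samples from the 8 normoxia samples, whereas the second feature, between 5.28 and 6.65, does not.

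Sod1, the cytosolic superoxide dismutase, read 13.02, 13.51, 13.78 and 13.20 in wild-type normoxia, 12.94 to 13.70 with a median of 13.17 in wild-type hyperoxia, 13.43, 13.22, 13.61 and 13.48 in Fgf10+/- normoxia, and 13.46 and 13.29 in Fgf10+/- hyperoxia. The groups overlapped, and the difference was -0.11 (SE 0.16, 95% interval -0.45 to 0.23). Sod2, the mitochondrial enzyme, differed by -0.11 (SE 0.23). Sod3, the secreted enzyme, differed by 0.49 (SE 0.45), and wild-type normoxia replicate 1 stood at 8.90 while the other 3 read 5.52 to 6.08. That sample also had the highest mean of 11 fibroblast, smooth muscle and pericyte markers, 10.6 against 7.87 to 9.86 in the other 15, and the part of those cells in the Sod3 value was not tested.

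In the class listed as NADPH supply, Taldo1 rose and Pgd, Tkt and Me1 did not pass. The class name is that of the list, and NADPH itself was not measured. Taldo1 encodes transaldolase of the pentose phosphate pathway. It read 11.83, 11.99, 11.79 and 11.89 in wild-type normoxia, 12.05 to 12.35 with a median of 12.13 in wild-type hyperoxia, 11.36, 11.81, 11.82 and 11.53 in Fgf10+/- normoxia, and 12.12 and 12.23 in Fgf10+/- hyperoxia. The hyperoxia samples began at 12.05 and the normoxia samples ended at 11.99, so they did not overlap. The rise was 0.42 (SE 0.12, 95% interval 0.15 to 0.68, limma adjusted p = 0.0400), a 1.34-fold rise. With each sample omitted in turn it passed 4 times of 16, at 0.37 to 0.45. Me1, malic enzyme, differed by 0.23 (SE 0.23), Pgd by -0.11 (SE 0.18) and Tkt, transketolase, by -0.19 (SE 0.16).

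The metallothioneins, small cysteine-rich proteins that bind zinc and copper and scavenge oxidants, did not pass. Mt1 read 13.11, 14.54, 14.75 and 14.08 in wild-type normoxia, 13.54 to 14.65 with a median of 14.34 in wild-type hyperoxia, 14.45, 13.85, 14.75 and 14.50 in Fgf10+/- normoxia, and 13.95 and 14.50 in Fgf10+/- hyperoxia. Its change was -0.06 (SE 0.27, 95% interval -0.63 to 0.51). Mt2 read 12.99, 14.55, 14.78 and 13.85 in wild-type normoxia, 12.93 to 14.27 with a median of 13.91 in wild-type hyperoxia, 13.97, 13.71, 14.76 and 14.41 in Fgf10+/- normoxia, and 13.38 and 14.11 in Fgf10+/- hyperoxia. All groups of both genes overlapped. The change of Mt2 was -0.40 (SE 0.30, limma adjusted p = 0.454).

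The quinone, haem and xenobiotic genes held 4 of the 7 members that rose, 44.4% of the class against 4.97% of all genes. In this class 8 of 9 members were positive over both genotypes (88.9%, against 43.5% of all genes), with a median of 0.55. Of 16 other genes of such roles, on the further list below, 7 were positive (43.8%), with a median of -0.04. Of those 16, 1 rose (6.25%) and 0 fell, so the shares of these members do not extend to other genes of the class. Cbr3, a carbonyl reductase, read 7.78, 8.85, 8.39 and 8.42 in wild-type normoxia, 8.37 to 10.98 with a median of 9.60 in wild-type hyperoxia, 7.60, 8.16, 9.01 and 8.66 in Fgf10+/- normoxia, and 9.45 and 10.28 in Fgf10+/- hyperoxia. In wild type replicate 1 of the hyperoxia group lay within the normoxia range, and in Fgf10+/- the groups were apart. The rise was 1.41 (SE 0.36, 95% interval 0.65 to 2.17, limma adjusted p = 0.0188), 2.66-fold, and with each sample omitted in turn it passed 15 times of 16, the exception being 1.20 (adjusted p = 0.120) without Fgf10+/- hyperoxia replicate 2.

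Ephx1, microsomal epoxide hydrolase, read 9.97, 11.32, 11.64 and 10.78 in wild-type normoxia, 10.86 to 13.00 with a median of 12.01 in wild-type hyperoxia, 10.55, 10.31, 11.12 and 10.96 in Fgf10+/- normoxia, and 11.57 and 12.52 in Fgf10+/- hyperoxia. The wild-type groups overlapped and the Fgf10+/- groups did not. It rose by 1.20 (SE 0.34, limma adjusted p = 0.0323), 2.29-fold, and its second feature rose by 1.25 (SE 0.30, adjusted p = 0.0146 in a fit of all 31439 features). Omitting each sample in turn, it passed 10 times of 16 (0.96 to 1.44).

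Aox1, an aldehyde oxidase, read 5.19, 6.12, 5.86 and 5.65 in wild-type normoxia, 5.73 to 7.96 with a median of 6.59 in wild-type hyperoxia, 5.25, 5.47, 6.14 and 6.21 in Fgf10+/- normoxia, and 6.99 and 7.46 in Fgf10+/- hyperoxia. In wild-type hyperoxia 3 samples, replicates 1, 2 and 5, lay within the normoxia range and 3 lay above it. It rose by 1.22 (SE 0.32, limma adjusted p = 0.0233), 2.33-fold, and passed 14 times of 16 with 1 sample omitted. Both of its normoxia groups averaged under the dim limit (5.71 and 5.77), so the fold is less certain, and its mean over all samples was above that limit through the hyperoxia samples. Ugdh makes UDP-glucuronate for conjugation and for matrix polysaccharides. It read 8.98, 8.04, 8.10 and 7.68 in wild-type normoxia, 8.31 to 9.04 with a median of 8.59 in wild-type hyperoxia, 8.04, 7.94, 7.94 and 8.0035 in Fgf10+/- normoxia, and 8.74 and 8.80 in Fgf10+/- hyperoxia. Wild-type normoxia replicate 1 was high, and the Fgf10+/- groups did not overlap. Ugdh rose by 0.60 (SE 0.19, adjusted p = 0.0473), 1.52-fold, and passed 3 times of 16 with 1 sample omitted. Its high sample, wild-type normoxia replicate 1, was the highest in fibroblast, smooth muscle and pericyte markers, and with their mean as a covariate the change of Ugdh was 0.31 (adjusted p = 0.236). It was 0.45 (adjusted p = 0.0808) with the erythroid marker mean and 0.73 (adjusted p = 0.00627) without that sample.

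**Figure D3:**
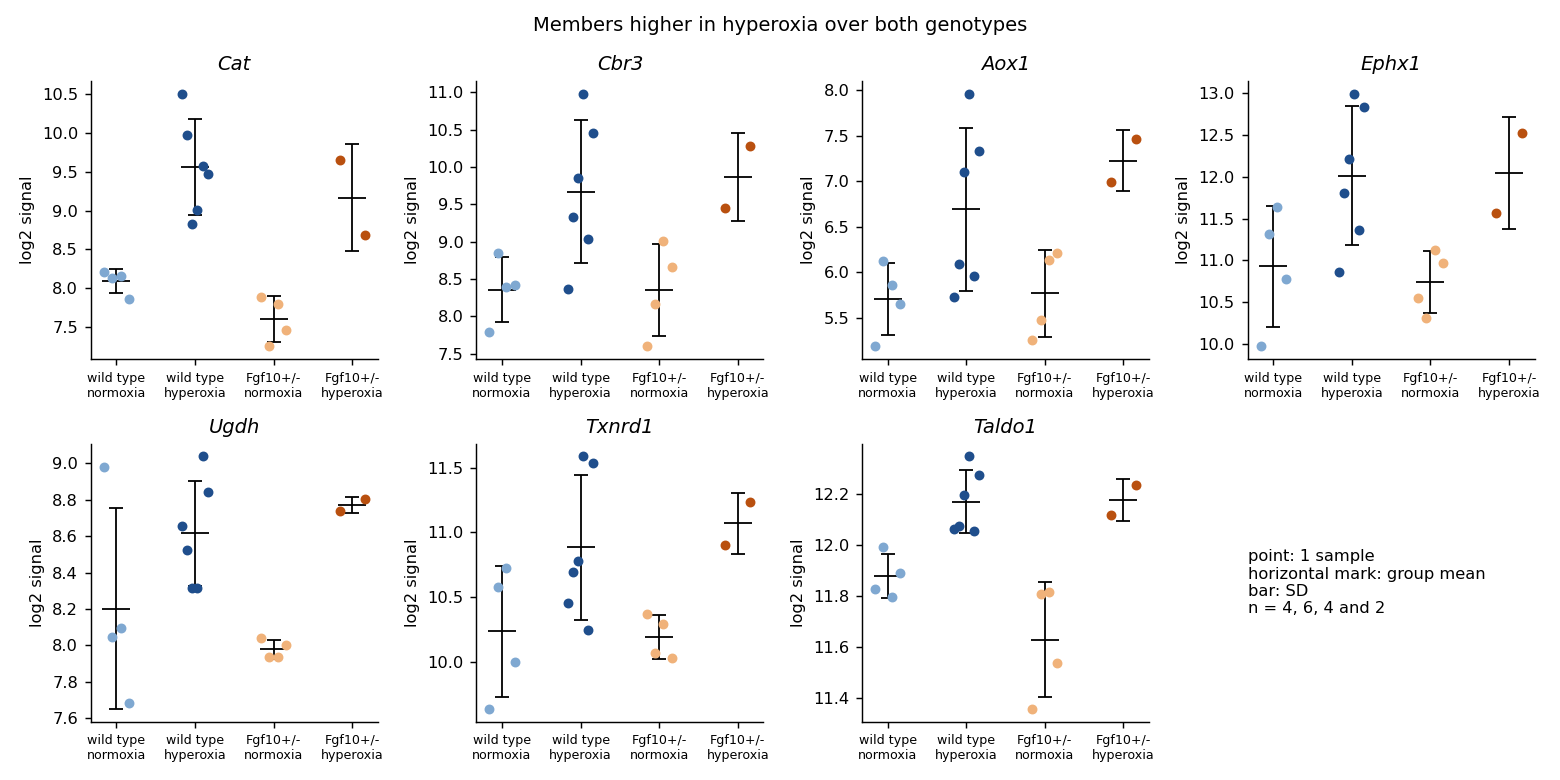
Log2 signal (y axis) of the 7 members that rose over both genotypes, by group (x axis), 1 point per sample with the group mean and SD. Cat and Taldo1 separate hyperoxia from normoxia in every sample, whereas Cbr3, Aox1, Ephx1, Txnrd1 and Ugdh overlap in wild type and are apart in Fgf10+/-.

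Nqo1 and Hmox1, often used as readouts of NRF2, did not pass. Nqo1, a quinone reductase, had a mean signal under 6 and was higher by 0.55 (SE 0.27, limma adjusted p = 0.201), with 0.30 in wild type and 0.80 in Fgf10+/-. Hmox1, which opens haem to biliverdin, was 10.98 ± 0.71 (SD, n = 4) in wild-type normoxia and 11.60 ± 0.47 (n = 6) in wild-type hyperoxia, and 11.02 ± 0.40 (n = 4) and 11.04 ± 0.42 (n = 2) in the Fgf10+/- groups. Its change was 0.32 (SE 0.26, limma adjusted p = 0.496). The second, dimmer feature of Hmox1 was higher by 0.61 (SE 0.30, limma adjusted p = 0.216 in the fit of all 31439 features). Blvrb, which reduces biliverdin, differed by 0.52 (SE 0.26), Abcc1, an exporter of glutathione conjugates, by 0.19 (SE 0.20) and Osgin1 by -0.13 (SE 0.40). Blvrb was highest (8.54) in wild-type hyperoxia replicate 5 and lowest (6.33) in wild-type normoxia replicate 4. These samples also had the highest and lowest erythroid marker means, 10.25 and 7.65. The part of erythroid cells in the Blvrb value was not tested.

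The wild-type hyperoxia samples differed from each other in many members at once. Replicate 4 had the highest value for 28 of the 46 members (60.9%, against 20.9% of all genes), and replicates 1 and 5 had the lowest for 19 members each (41.3%, against 24.4% of all genes for replicate 1 and 4145 of 20725 for replicate 5). In wild-type normoxia replicate 1 was lowest for 23 members, and in Fgf10+/- normoxia replicate 3 was highest for 25. The same samples differed in the club and secretory markers. In wild-type hyperoxia their mean was 13.61 in replicate 4, 12.88 in replicate 6, 12.19 in replicate 3, 10.98 in replicate 2, 9.85 in replicate 1 and 9.61 in replicate 5. Ephx1 followed 13.00, 12.84, 12.21, 11.81, 10.86 and 11.36 in that order of samples, and Srxn1 followed 10.77, 10.27, 9.57, 8.99, 8.61 and 8.72. Gpx2 read 12.36, 12.03, 11.29, 10.65, 9.75 and 10.16 in the same order. Among wild-type normoxia samples the lowest marker mean, 11.58 in replicate 1, went with the lowest Ephx1 (9.97) and Gpx2 (7.48). Replicate 2, highest for 20 members, had a marker mean of 12.82, below the 13.63 and 13.31 of replicates 3 and 4. In Fgf10+/- normoxia the marker mean was highest in replicate 4 (13.94), which was highest for 2 members, and was 13.85 in replicate 3. The ciliated markers ran alongside in wild-type hyperoxia, at 10.48, 9.93, 9.68, 8.98, 7.998 and 8.26 in replicates 4, 6, 3, 2, 1 and 5. Like Ephx1, Srxn1 and Gpx2 they were lower in replicate 1 than in replicate 5, whereas the club mean was lower in replicate 5. Club and ciliated markers otherwise ran together in wild-type hyperoxia, whereas in normoxia they parted in some samples. The ciliated mean was 10.65 in wild-type normoxia replicate 2 and 9.92 in replicate 4, the reverse of the club order. In Fgf10+/- normoxia it was 10.79 in replicate 3 and 10.40 in replicate 4, again the reverse. No fit with the ciliated mean as covariate was made, and the part of either cell type was not tested. Cat did not follow this order and was highest in replicate 1.

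**Figure D4:**
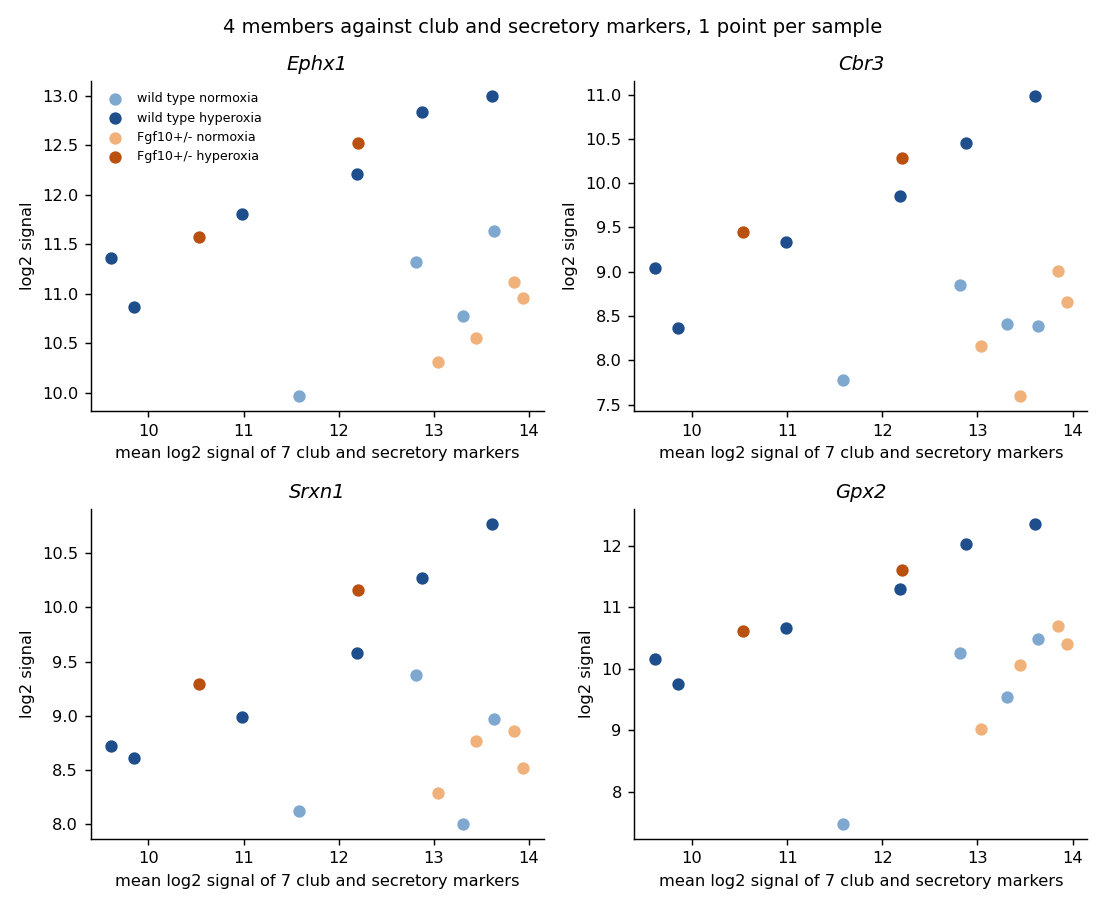
Log2 signal of Ephx1, Cbr3, Srxn1 and Gpx2 (y axes) against the mean log2 signal of 7 club and secretory markers (x axis), 1 point per sample, coloured by group. Within wild-type hyperoxia the members are high where the markers are high, and at a like marker mean the hyperoxia samples lie above the normoxia samples.

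Since the club and secretory markers were lower in hyperoxia (median change -1.14, with Scgb3a1 and Muc5b passing) while these members were higher, the fit was repeated with the marker mean as a covariate, a choice made after the values had been seen. Of the 7 markers, Scgb1a1 and Cbr2 lay at the upper end of the signal range in most samples, and Cbr2 and Cyp2f2 are also on the list of further pathway genes. In that fit 12 members rose and none fell, where 4.37% of all genes passed (905 genes, against 2302 without the covariate). Of the 12, 5 were among the 7 (Cat, Cbr3, Ephx1, Aox1 and Txnrd1) and 7 were added: Gpx2 at 2.66, Gsta2 at 2.36, Gsta3 at 1.90, Srxn1 at 1.84, Gclc at 1.38, Prdx6 at 1.32 and Gstm1 at 1.12. Ephx1 rose by 2.14 instead of 1.20 and Cbr3 by 2.35 instead of 1.41. Cat rose by 1.08 instead of 1.52, Taldo1 did not pass at 0.52 (limma adjusted p = 0.0666), and Ugdh did not at 0.35 (adjusted p = 0.405). Within the genotypes 11 members rose in wild type with this covariate, where 397 of 20725 genes passed (267 of them higher). In Fgf10+/- 9 members rose, where 163 genes passed (96 of them higher). The marker mean also differed between the groups, so its effect and that of hyperoxia cannot be fully told apart, and the part of club or ciliated cells in these values was not tested. With the fibroblast, smooth muscle and pericyte marker mean as covariate 10 members rose (6.68% of all genes passed), namely the same 5 of the 7 and Gclc, Gpx2, Gsta2, Prdx6 and Srxn1, and Taldo1 and Ugdh did not pass. With the thymocyte marker mean in its place (854 of 20725 genes passed), Cat rose by 1.36 (limma adjusted p = 0.0280) and the other 6 did not pass. With the endothelial marker mean (305 genes passed), Aox1 and Cbr3 passed and the other 5 did not.

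**Figure D5:**
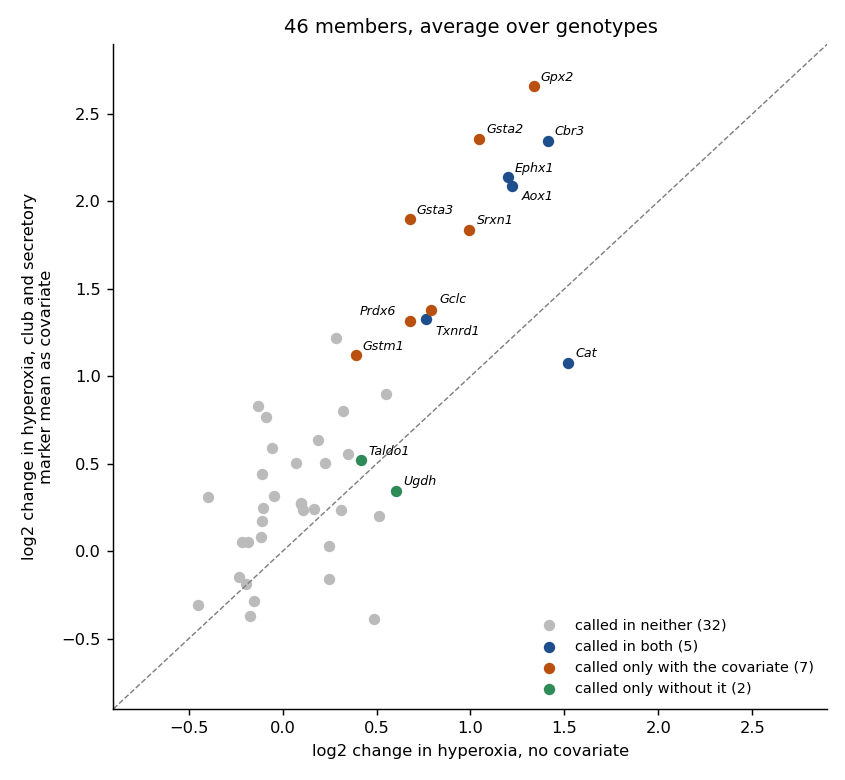
Log2 change in hyperoxia over both genotypes of the 46 members, without a covariate (x axis) and with the club and secretory marker mean as covariate (y axis); the dashed line marks equal values. Of the 46, 5 passed in both fits, 7 passed with the covariate and not without it, and 2, Taldo1 and Ugdh, passed without it and not with it.

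No member passed in a comparison of the genotypes. In normoxia 0 of 46 members passed between Fgf10+/- and wild type by limma (0.00965% of all genes passed), none at an unadjusted p under 0.05 either (0 members, 6.03% of all genes), and the median difference was -0.03. In hyperoxia 0 members passed (0% of all genes, 4.37% of which had an unadjusted p under 0.05), and 1 had an unadjusted p under 0.05. Slc7a11, the cystine importer, read 3.36 and 3.04 in Fgf10+/- and 3.99 to 4.95 in wild type, a difference of -1.29 (SE 0.38, limma adjusted p = 0.938). These signals were under the dim limit of 6, and the median of all array values was 4.34. For the interaction, which asks whether hyperoxia acted differently in the genotypes, 0 members passed (0.00965% of all genes) and 0 had an unadjusted p under 0.05 (4.11% of all genes). The members' interaction estimates ran from -0.72 for Slc7a11 to 0.63 for Sod3, and that of Cat was 0.10 (SE 0.49, 95% interval -0.93 to 1.14). With 2 Fgf10+/- hyperoxia samples the intervals are wide, and a missing call does not show that the genotypes respond alike.

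A further 87 genes of the same pathways, listed by role, had shares of positive changes like those of all genes. Over both genotypes 39 of 87 were positive (44.8%, against 43.5% of all genes). In the same comparison 4 rose (Fmo1, Ftl1, Nox4 and Selenow, the last named after its values were seen) and 9 fell, 4.60% and 10.3% against 4.97% and 6.14% of all genes, with a median of -0.05, close to the -0.06 of all genes. Txnip, which binds and inhibits thioredoxin, was 9.75 ± 0.09 (SD, n = 4) and 8.92 ± 0.34 (n = 6) in wild-type normoxia and hyperoxia, and 9.32 ± 0.21 (n = 4) and 8.14 ± 0.26 (n = 2) in Fgf10+/-, and fell by 1.00 over both (SE 0.16, limma adjusted p = 8.15e-04). Mgst2, a microsomal glutathione transferase that also makes leukotriene C, fell by 1.73 (SE 0.28, adjusted p = 8.79e-04). Chac1, which degrades glutathione, fell by 1.67 (SE 0.30, adjusted p = 0.00206), from 10.08 ± 0.66 (n = 4) to 8.42 ± 0.52 (n = 6) in wild type.

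Of the genes that rose, Fmo1, a flavin monooxygenase, changed by 1.27 (SE 0.25, limma adjusted p = 0.00404), Ftl1, the ferritin light chain that stores iron, by 0.67 (SE 0.15, adjusted p = 0.00852), and Nox4, an oxidase that makes hydrogen peroxide, by 1.37 (SE 0.31, adjusted p = 0.00995). Ftl1 read 15.38 to 15.53 in all 6 wild-type hyperoxia samples, above the 14.46 to 15.04 of wild-type normoxia. Nox4 was 4.33 ± 0.33 (n = 4) and 6.13 ± 0.28 (n = 2) in Fgf10+/- normoxia and hyperoxia, signals near or under 6. In wild type Nox4 read 6.77 in normoxia replicate 1, above all 6 hyperoxia samples (5.38 to 6.64), and 4.46 to 5.04 in the other 3 normoxia samples, and its change was 0.94 (adjusted p = 0.190) there against 1.80 (adjusted p = 0.0696) in Fgf10+/-. Of 9 partners of NRF2 and genes of its degradation, 2 fell and 0 rose: Sqstm1, the autophagy receptor that competes for KEAP1, by 0.82 (SE 0.18, adjusted p = 0.00916), and Cul3, the ligase scaffold used by KEAP1 and named after its values were seen, by 0.58 (SE 0.16, adjusted p = 0.0280). Within wild type 1 of the 87 rose (Ftl1) and 5 fell, Chac1, Txnip and Sqstm1 among them, or 1.15% and 5.75% against 1.77% and 1.36% of all genes. Within Fgf10+/- 1 rose (Fmo1) and 2 fell (Mgst2 and Txnip), or 1.15% and 2.30% against 1.18% and 1.26% of all genes.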

How the data were processed

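RNA of 16 samples had been labelled with 1 dye and hybridised to Agilent mouse arrays, and the authors' deposited log2 values were used as they stood. They are normalized, but how, with which software and on which log base was not given in the sources used here. Of 62976 array features, 31465 carried 1 gene symbol, and symbols were updated through RefSeq. Each gene was represented by its brightest feature, by the mean of the 16 samples, which left 20725 genes. Groups came from the sample titles and genotype labels. A model of 4 group means over all 16 samples was fitted with limma 3.58.1 in R 4.3.3, p-values were adjusted by Benjamini-Hochberg over all genes, and genes with an adjusted p under 0.05 were called. The 6 comparisons were hyperoxia in wild type, in Fgf10+/- and averaged over both with equal weight, genotype in normoxia and in hyperoxia, and the interaction. The fit was tested on simulated data. No 2 samples were identical, and their correlations were 0.911 to 0.970. The number of arrays limits the precision, and with 2 Fgf10+/- hyperoxia samples intervals are widest there.

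The members and all gene lists were chosen with earlier results of these data known. Values by sample are given for members called in any comparison and for the member with the smallest p and the brightest member of each class. Of the further pathway genes, up to 3 per direction and hyperoxia comparison are named by smallest p. The alternatives were array centring, quantile normalization, other choices of feature, a filter on dim genes, the groups compared alone, replicate number as a block, a prior with an intensity trend, array weights, marker means as covariates and leaving out samples. The omission of the 4 libraries highest in thymocyte markers and the club, fibroblast and endothelial covariates were chosen after seeing the data.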

Additional observations from a re-analysis of the deposited data

Results flagged for a closer look

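In each group of 4 or 6 samples the highest and lowest value of each member were compared with the rest of the group, and 4 values of 138 groups tested stood apart from the others by more than Dixon's limit, where chance gives about 1 in 20 groups. Gpx1 read 13.55 in wild-type hyperoxia replicate 5, against 12.52 to 12.85 in the other 5. In wild-type normoxia replicate 1 Sod3 read 8.90, against 5.52 to 6.08 in the other 3, and Gpx7 read 6.54, against 5.76 to 5.87. Me1 read 9.17 in Fgf10+/- normoxia replicate 2, against 10.21 to 10.33 in the other 3.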

How the results depend on the processing

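No member's change reversed while called: of 4214 values under alternatives, 4048 stayed on the same side of the threshold, 101 lost the call and 65 gained one. Of the 4048, 242 values of 64 changes, past the threshold in neither fit, had the opposite sign. Leaving out 1 sample gave 1 to 7 members over both genotypes (1179 to 2341 genes), 1 to 2 in wild type (323 to 698 genes), 0 to 1 in Fgf10+/- (90 to 567 genes), and 0 in the genotype and interaction comparisons, where 0 to 9, 0 to 4 and 0 to 3 genes passed. Over both genotypes the lowest counts were 1 member (1183 genes) without Fgf10+/- hyperoxia replicate 2 and 2 (1179 genes) without replicate 1. There were 3 without Fgf10+/- normoxia replicate 1, and 4 without each of Fgf10+/- normoxia replicate 4, wild-type normoxia replicates 1 and 4, and wild-type hyperoxia replicates 2 and 6. In wild type 2 members passed without normoxia replicate 3 or hyperoxia replicate 1, and genes fell to 323 without normoxia replicate 2 and 381 without normoxia replicate 4. In Fgf10+/- genes fell to 252 and 278 without normoxia replicates 1 and 4, and 90 and 108 without hyperoxia replicates 1 and 2.

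The main fit did not pair samples by replicate number. Correlations of deviations from group means were -0.16 to 0.24 in the 18 pairs of like number, 4 over 0.1. In the other pairs they were -0.352 to 0.27. These ranges overlap and do not settle whether samples of like number were paired. With replicate number as a block, 7 members passed over both genotypes, 4 of them shared (1380 genes), 1 in wild type (216 genes) and 0 in Fgf10+/- (103 genes), and 0 genes in the genotype contrast in normoxia and the interaction.

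Members over both genotypes numbered 11 with centring and 11 among genes with a mean of at least 6 (10 higher, Prdx5 lower). There were 2 with the thymocyte covariate (Cat higher, Prdx5 lower), 12 with the club and 2 with the endothelial covariate. Genes numbered 854 (thymocyte), 467 (without the 4 libraries), 905 (club), 1385 (fibroblast) and 305 (endothelial). In wild type the members were 0 with the mean of all features and 3 with the filter on dim genes (Cat and Gclc higher, Prdx5 lower). There were 2 each with the trended prior and array weights (Cat higher, Prdx5 lower) and the erythroid covariate (Cat and Cbr3 higher). The thymocyte covariate gave 1 (Prdx5 lower, Cat at limma adjusted p = 0.0552), and the others gave 11 (club), 5 (fibroblast) and 0 (endothelial). Genes in wild type were 1172 with the filter, 1000 with the trended prior, 423 (thymocyte), 397 (club) and 289 (endothelial). In Fgf10+/- the members were 2 with the filter and 9 (club). They were 0 with centring, the mean of features, every feature fitted, only the groups compared, and the erythroid, thymocyte, fibroblast and endothelial covariates. Genes there were 332 with the mean of features, 792 with the filter, 261 with only the groups compared, 115 (thymocyte), 14 without the 4 libraries, 163 (club), 282 (fibroblast) and 7 (endothelial). With centring the split was 512 higher and 152 lower genes in wild type, against 367 and 282, and 270 and 169 in Fgf10+/-, against 245 and 262. For genotype in normoxia, 2 genes became 7 with the filter, 8 with the trended prior, 11 with array weights and 4 with the erythroid covariate. They became 0 with every feature, only the groups compared and the club, fibroblast and endothelial covariates. For the interaction, 2 became 0 with every feature, the filter, the trended prior and the erythroid, thymocyte, club, fibroblast and endothelial covariates. Only the groups compared gives no value for the averaged and interaction contrasts. Without the 4 thymocyte-high libraries 1 Fgf10+/- normoxia sample is left, so no counts are given for that fit. Apart from fewer genes or samples where an alternative has them, the cause of these shifts was not tested. Members with a mean signal under 6 have the least certain changes.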
